A study of Mus musculus with 4 samples.

Results

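The 9 genes Six2, Six4, Eya1, Eya2, Osr1, Pax2, Pax8, Wt1 and Sall1 encode regulators of the intermediate mesoderm and the kidney. They were chosen by name, and every array probe whose RefSeq accession belongs to one of them was taken, which gave 11 probes for 9 of the 20660 genes that the arrays name. Their signal was compared between Flk-1+ cells with and without activity of a Hoxb6 reporter. Both fractions came from the mouse embryonic stem (ES) cell line EB5, which carried a Hoxb6-Venus reporter and had differentiated for 6 days on OP9 feeder cells, a stromal line. Cells stained with an Flk-1 antibody were sorted into a Flk-1+Hoxb6-Venus- and a Flk-1+Hoxb6-Venus+ fraction, called Venus-negative and Venus-positive here. Each fraction was measured on 2 arrays.

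The intermediate mesoderm lies between the somites and the lateral plate and gives rise to the nephric duct, the kidney and parts of the gonad. Osr1 is active in it early, Pax2 and Pax8 set up the nephric duct lineage together, and Wt1 and Sall1 act in the metanephric mesenchyme. Eya proteins are co-activators, with a phosphatase domain, that work with homeodomain proteins of the Six2 family, and Six2 keeps nephron progenitors from differentiating. None of these genes is restricted to the kidney: several of them also act in placodes, muscle, limb, heart or mesothelium, so a signal does not by itself place a cell in the kidney lineage.

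Nothing in the labels says that the replicates came from separate cultures, so the p-values here reflect the spread among 4 arrays, part or all of which may be technical. All 4 arrays were on 1 slide. The row on the slide went with the replicate number and the column with the fraction, so that column and fraction cannot be told apart. Between 50.7% and 53.0% of non-control spots lay well above background on each array, 0 were saturated, and precision is limited by having 2 arrays per fraction. In bulk RNA, fewer cells with a transcript and less of it per cell cannot be told apart.

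Six2 had by far the largest difference among the 9 genes. Its brighter probe gave a processed signal of 1644 and 1527 on the Venus-negative arrays (replicates 1 and 2) and of 57.5 and 62.8 on the Venus-positive arrays. The groups lay far apart, and the gene was still well above background on both Venus-positive arrays. On the log2 scale relative to each array's 75th percentile, the Venus-negative arrays averaged 2.10 ± 0.06 and the Venus-positive arrays -2.78 ± 0.17 (SD, n = 2 each). Six2 was therefore 29.4-fold lower in Venus-positive cells, with a 95% interval of 22.8 to 38.0-fold (limma log2 change -4.88 ± 0.13 SE, adjusted p = 0.0246). Within the slide rows the log2 difference was -4.96 and -4.80.

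A second, dimmer Six2 probe was kept for testing only because it was well above background on both Venus-negative arrays. Its lower signal is therefore no further support for a difference. It read 70.5 and 58.9 in Venus-negative cells and 2.89 and 2.45 in Venus-positive cells, where it was well above background on neither array. The difference on this probe is therefore a bound: the signal was at least 5.98-fold lower in Venus-positive cells. The bound compares the bright mean with the lowest signal that counted as well above background on each Venus-positive array.

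**Figure D1:**
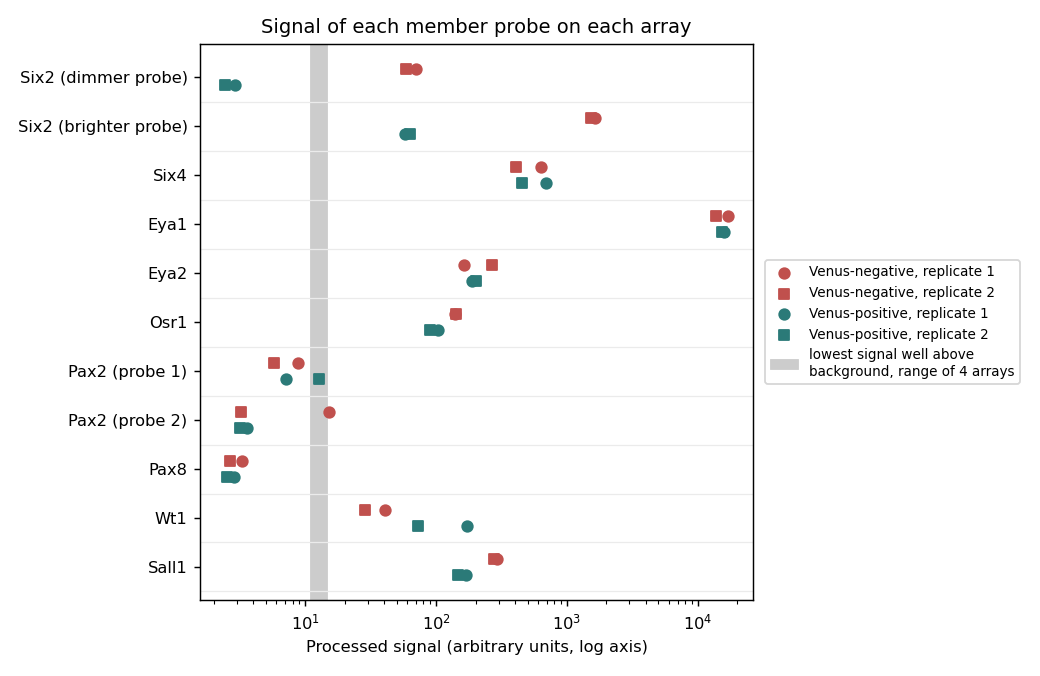
Processed signal of each member probe on each array (log axis, arbitrary units), with Venus-negative arrays in red and Venus-positive arrays in green, circles for replicate 1 and squares for replicate 2. The grey band spans the lowest signal well above background, 11.1 to 14.7 over the 4 arrays. Both Six2 probes are far lower in Venus-positive cells, Sall1 is lower and Wt1 higher by less, and Pax8 lies below the band on all arrays.

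The promoter window of Six2 is shown because this gene carries the largest change, and that of Sall1 because it was the other member that passed the test. The windows come from RefSeq, build GRCm38.p6, run 5′ to 3′ on the gene's strand and hold 300 bases, of which the last 50 follow the annotated start. Capitals mark CG dinucleotides. Of the 9 genes, 5 had an entry in this table (Six2, Six4, Pax2, Pax8 and Sall1); Eya1, Eya2, Osr1 and Wt1 had none.
Six2, chr17:85688205-85688504, minus strand: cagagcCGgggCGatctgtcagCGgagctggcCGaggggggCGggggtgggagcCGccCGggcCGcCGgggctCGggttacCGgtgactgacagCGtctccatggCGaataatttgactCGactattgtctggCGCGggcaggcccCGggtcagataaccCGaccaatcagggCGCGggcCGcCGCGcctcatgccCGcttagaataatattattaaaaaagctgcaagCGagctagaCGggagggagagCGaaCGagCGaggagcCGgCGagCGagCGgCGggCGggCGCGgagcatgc
Sall1, chr8:89044113-89044412, minus strand: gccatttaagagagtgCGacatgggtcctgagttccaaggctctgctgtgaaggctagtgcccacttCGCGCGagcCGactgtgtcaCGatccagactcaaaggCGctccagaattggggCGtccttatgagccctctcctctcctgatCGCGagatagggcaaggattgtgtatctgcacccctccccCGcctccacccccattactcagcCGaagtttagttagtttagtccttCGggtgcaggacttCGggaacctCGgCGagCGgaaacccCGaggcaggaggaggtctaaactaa

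The Six2 window holds 37 CG dinucleotides and the Sall1 window 18, against a median of 7 over all 32851 windows. The other windows of Sall1, at alternative starts, hold 27 and 39. Neither printed window holds any of 5 short motifs searched on both strands. These were the T-box core GGTGTGA (in 3.98% of all windows), the core TCAGGTT of the family that holds Six2 and Six4 (4.07%) and the forkhead core TGTTTAC (3.65%). The others were the homeodomain core TAATTA (5.29%) and TATAAA (13.6%). Among all member windows the only match was that of TCAGGTT, once in a window of Six4, on the opposite strand, 97 bases before the start. A match or its absence in a window describes the letters only.

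Sall1, a zinc-finger regulator needed for the ureteric bud to enter the kidney mesenchyme, fell by a much smaller factor. Its signal was 294 and 275 in Venus-negative and 170 and 148 in Venus-positive cells, so that both Venus-positive arrays lay below both others. The normalised log2 level averaged -0.38 ± 0.06 on the Venus-negative arrays and -1.38 ± 0.07 on the others (SD, n = 2 each). This amounts to 2.00-fold lower expression, with a 95% interval of 1.62 to 2.45-fold (log2 change -0.997 ± 0.10 SE, limma adjusted p = 0.0465). The log2 difference was -0.90 in the first and -1.09 in the second slide row. The adjusted p lay close to the threshold, and it was 0.0520 when the replicate number, which is also the slide row, was a term in the fit.

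Osr1, an odd-skipped zinc-finger gene of early intermediate and lateral mesoderm, did not pass the test. It read 139 and 143 in Venus-negative and 103 and 90.3 in Venus-positive cells. The groups did not overlap, but the log2 change of -0.70 ± 0.13 SE had a limma adjusted p of 0.0914. The 95% interval ran from -1.07 to -0.34 on the log2 scale.

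Wt1, a zinc-finger gene of nephron progenitors, podocytes, gonad and mesothelium, was the only tested member with a positive log2 change. Its signal was 40.6 and 28.5 in Venus-negative cells, against 172 and 72.2 in Venus-positive cells. The groups did not overlap, yet the Venus-positive replicates differed from each other by more than the Venus-negative ones, with normalised log2 levels of -1.89 ± 0.81 and -3.44 ± 0.23 (SD, n = 2 each). The log2 change of 1.55 ± 0.44 SE, a factor of 2.93, did not pass (limma adjusted p = 0.157), and the 95% interval of the fold ran from 1.23 to 6.96. Leaving out the dimmer Venus-positive array gave 2.12, and leaving out the brighter one gave 0.98. With model-based background correction (normexp) the log2 change was 0.73. The antisense gene Wt1os, next to Wt1, was well above background on none of the 4 arrays.

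Six4, a homeodomain gene of kidney, muscle and sensory organs, had signals of 632 and 406 in Venus-negative and 689 and 451 in Venus-positive cells. In both fractions replicate 1 was brighter than replicate 2, and the groups overlapped. The log2 change was -0.02 ± 0.26 SE (limma adjusted p = 0.971), with a 95% interval from -0.76 to 0.72. The sign was not stable: it was positive with arrays centred on the median (0.05) and with normexp (0.05). Six4 overlaps the gene Mnat1 in the annotation, whose log2 change was 0.05 ± 0.11 SE (adjusted p = 0.812).

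Eya1, a co-activator without which mouse kidneys do not form, was bright on every array. The probe's sequence was not used here, so binding of other transcripts to it was not tested. It read 16971 and 13734 in Venus-negative and 15749 and 15275 in Venus-positive cells. After scaling, both Venus-positive values lay just below the Venus-negative ones, and the log2 change was -0.13 ± 0.10 SE (limma adjusted p = 0.501). The 95% interval, from -0.43 to 0.16, is the narrowest among the members that did not pass; its lower end is 1.35-fold lower expression in Venus-positive cells.

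Eya2, a paralog known from muscle and placodes, read 163 and 267 in Venus-negative and 188 and 202 in Venus-positive cells. Here the Venus-negative replicates lay on either side of the Venus-positive ones. The log2 change of -0.26 ± 0.35 SE did not pass (limma adjusted p = 0.702), and its 95% interval from -1.25 to 0.73 leaves room for a change of either sign. It turned to 0.19 without Venus-negative replicate 2.

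The paired-box genes Pax2 and Pax8, which define the nephric lineage in the embryo, were well above background on 0 of the 4 arrays and were not tested. The 2 Pax2 probes read 8.87 and 5.78, and 15.2 and 3.22, in Venus-negative cells. In Venus-positive cells they read 7.14 and 12.7, and 3.58 and 3.18. The Pax8 probe read 3.27 and 2.66 in Venus-negative and 2.87 and 2.53 in Venus-positive cells. No difference in either gene was detectable at these signals. The pair by which the nephric lineage is usually recognised was thus not detected by these probes in either fraction.

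Of the 9 members, 7 passed the filter on dim probes and 2 were lower, Six2 and Sall1, while 0 were higher at a limma adjusted p under 0.05. Over all 23547 features tested, 1.36% were lower and 0.777% higher, or 2.14% in either direction. With any 1 of the 4 arrays left out, 0 members and 0 named genes were called in fits of 3 arrays; the log2 change of Six2 stayed between -5.00 and -4.76 and that of Sall1 between -1.04 and -0.95. At an unadjusted p under 0.05, 3 members were lower and 1 higher, against 2674 and 2905 of all features. The median log2 change of the 7 tested members was -0.26, and that of all features 0.0029. Both arrays of one fraction lay beyond both of the other for Six2, Sall1, Osr1, Eya1 and Wt1, but so did those of 57.5% of all features.

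**Figure D2:**
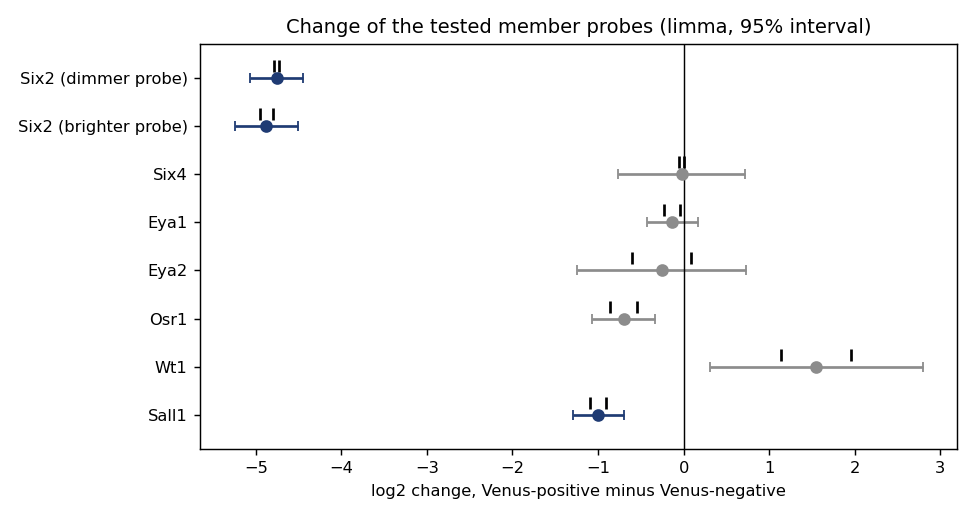
Log2 change (Venus-positive minus Venus-negative) of each tested member probe with its 95% interval from limma. Dark points passed at an adjusted p under 0.05, and black ticks give the difference within each slide row. The Six2 probes lie at -4.88 and -4.76, Sall1 lies at -0.997, and the intervals of Six4, Eya1 and Eya2 include 0. The dimmer Six2 probe is drawn at its measured value, which is not a bound. It passed the filter through the Venus-negative arrays alone, so its dark point is no support for a difference.

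The relatives of these genes in the same families, together with the Dach co-factors of the Eya proteins, did not pass in the fit reported. Of 13 genes, 9 were tested, and 0 were called in limma in either direction (1 higher and 2 lower at an unadjusted p under 0.05). Over all 23547 features, 1.36% were called lower and 0.777% higher. At an unadjusted limma p under 0.05, 2674 features were lower and 2905 higher. The counts of each list below are to be set beside these. The 9 tested relatives had a median log2 change of 0.11. The largest change belonged to Dach1, a nuclear co-factor of Eya proteins, with signals of 649 and 464 in Venus-negative and 363 and 277 in Venus-positive cells (log2 change -0.95 ± 0.17 SE, adjusted p = 0.0915, or 0.0489 with the replicate number in the fit). Of the Sall paralogs, Sall4, a zinc-finger gene of pluripotent and early embryonic cells, stood at -0.81 ± 0.12 (adjusted p = 0.0690), Sall2 at 0.67 ± 0.10 (adjusted p = 0.0666) and Sall3 at 0.28 ± 0.12 (adjusted p = 0.263). None of these 3 passed in the fit reported, and a difference between paralogs was not tested. With normexp, and also with a signal-dependent variance prior, Sall4 and Dach1 were called lower and Sall2 higher.

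Of the relatives of Six2 and Six4, none passed. Six5 stood at 0.11 ± 0.10 (adjusted p = 0.572). Six3, the neighbour of Six2 on chromosome 17, and Six6 were well above background on 0 of the 4 arrays. Eya3 and Eya4 had log2 changes of 0.16 ± 0.10 and -0.05 ± 0.10 (adjusted p = 0.432 and 0.791).

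Of 13 genes of the nephric duct and ureteric bud, 9 were tested, 2 were called lower and 0 higher, with a median log2 change of -0.48. Over all features 1.36% were called lower and 0.777% higher. Lhx1, a LIM homeodomain gene of the nephric duct that is also active in the gastrulating embryo, read 457 and 336 in Venus-negative and 19.2 and 15.96 in Venus-positive cells. The arrays lay far apart, and the log2 change was -4.64 ± 0.14 SE (adjusted p = 0.0246). Wnt9b, the duct-derived Wnt ligand that acts on Six2-expressing progenitors in the kidney, read 77.6 and 50.7 in Venus-negative cells and was not well above background in Venus-positive cells (7.20 and 8.46), where it was at least 5.82-fold lower. Wnt9b passed the filter on dim probes through the Venus-negative arrays alone, so its call is no support for a difference; among the 8 genes of the list above background on all 4 arrays, 1 was called, Lhx1. With normexp the log2 change was -2.69 for Lhx1 and -0.95 for Wnt9b. Gata3, a zinc-finger gene of the nephric duct, was brighter in Venus-positive cells, with 5069 and 2947 against 1906 and 1206, but missed the threshold (log2 change 1.19 ± 0.31 SE, adjusted p = 0.143, or 0.0489 with the replicate number in the fit). The GDNF receptor genes Ret and Gfra1 and the kidney cadherin Cdh16 were well above background on none of the arrays.

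Of 20 genes of the nephrogenic mesenchyme, 15 were tested, 3 were called lower and 0 higher, with a median log2 change of -0.38. The shares over all features were 1.36% lower and 0.777% higher. Bmp7, a ligand that keeps nephron progenitors alive, read 2068 and 1775 in Venus-negative and 195 and 165 in Venus-positive cells (log2 change -3.57 ± 0.11 SE, adjusted p = 0.0246). Itga8, the integrin chain through which the mesenchyme answers the ureteric bud, had 374 and 338 against 68.3 and 66.2 (-2.56 ± 0.10, adjusted p = 0.0278). Grem1, a secreted BMP antagonist, had 45.8 and 36.3 against 17.9 and 18.7 (-1.31 ± 0.12, adjusted p = 0.0421). Grem1 was not called with normexp (-0.49, adjusted p = 0.0544), with quantile normalization (-1.23, adjusted p = 0.0559) or with the replicate number in the fit (-1.31, adjusted p = 0.0510). Each of the 3 genes is also expressed outside the kidney.

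Several mesenchyme genes did not pass in the fit reported. Fgf8 stood at -3.03 ± 0.41 (adjusted p = 0.0615) and Crym, a thyroid-hormone binding protein, at -2.12 ± 0.37 (adjusted p = 0.0842). Both were called lower with the replicate number in the fit (adjusted p = 0.0429 each), with normexp and with a signal-dependent variance prior. Gdnf, the ligand that draws out the ureteric bud, was dim, with signals of 20.1 and 17.8 in Venus-negative and 21.4 and 9.55 in Venus-positive cells (-0.56 ± 0.40, adjusted p = 0.460), and its signal cleared background in Venus-positive replicate 1 but not in replicate 2. Slit2 and its receptor gene Robo2 stood at 0.75 ± 0.14 and 0.55 ± 0.20 (adjusted p = 0.0983 and 0.217). The forkhead gene Foxc1 stood at -0.20 ± 0.11 (adjusted p = 0.353).

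Of 6 podocyte genes, 5 were tested and 0 were called in limma (1 higher and 1 lower at an unadjusted p under 0.05), with a median log2 change of 0.13. The largest change was that of Ptpro, a receptor phosphatase, in which 1 array stood apart: the signals were 24.0 and 38.3 in Venus-negative and 45.8 and 327 in Venus-positive cells (log2 change 1.86 ± 1.12 SE, adjusted p = 0.393, and 0.38 without Venus-positive replicate 2). Nphs1, the gene of nephrin, was well above background on none of the arrays.

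**Figure D3:**
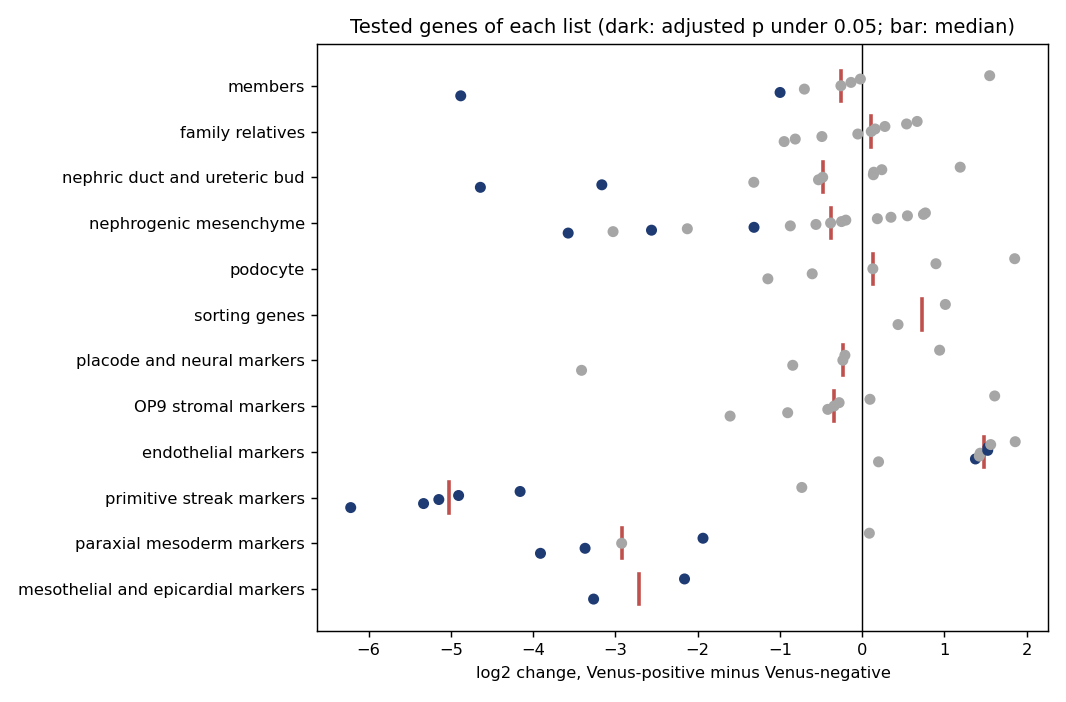
Log2 change (Venus-positive minus Venus-negative) of the tested genes of each list, with dark points for genes past an adjusted p of 0.05 and a red bar at each median. The kidney lists have medians between -0.48 and 0.13 with a few genes far below 0, while the streak markers centre on -5.03 and the endothelial markers on 1.48.

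Markers of other cell types also differed between the fractions. The summed signal of 6 primitive streak markers was taken in multiples of each array's 75th percentile. It was 36.8 to 42.9 in Venus-negative and 10.2 to 14.0 in Venus-positive cells. All 6 had negative log2 changes, and 5 of the 6 were called lower, against 1.36% of all features. Mesp1 passed the filter on dim probes through the Venus-negative arrays alone, so its call is no support for a difference. Among the 5 above background on all 4 arrays, 4 were called. T, which was not called (log2 change -0.73, limma adjusted p = 0.202), made up most of the Venus-positive sum. For 6 paraxial mesoderm markers the sum was 19.5 to 19.9 against 3.95 to 4.28. Of 5 tested, 4 had negative log2 changes and 3 were called lower, against the same 1.36% of all features. Of these 3, Pdgfra was not called with the replicate number in the fit (adjusted p = 0.0588). Tbx6 had a log2 change of -2.92 but was not called (limma adjusted p = 0.0687). For 8 endothelial markers the sum was 47.1 to 71.9 against 164 to 202. All 8 had positive log2 changes, and 3 of 8 were called higher, against 0.777% of all features. Cldn5, which was not called (limma adjusted p = 0.0839), made up more of the Venus-positive sum than any other marker. What part these shifts have in the values of Six2 and Sall1 was not tested.

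Of the mesothelial and epicardial markers, 2 of 6 were tested and both fell, Aldh1a2 with a log2 change of -3.26 ± 0.18 SE and Krt19 with -2.16 ± 0.19. With the replicate number in the fit Krt19 was not called (adjusted p = 0.0508). The defining markers Tbx18, Upk3b and Upk1b were well above background on none of the 4 arrays, and Msln on 1 Venus-positive array. The summed signal was 8.21 to 9.93 in Venus-negative cells and 1.57 in each Venus-positive array. Aldh1a2 and Krt19 make up nearly all of this sum, and whether mesothelial cells add to the signal of Wt1, which they also express, was not tested.

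Of 9 placode and neural markers, Pax6, Dlx5 and Neurog1 were not well above background on any array. Of the 5 tested, 0 were called in limma (1 higher and 2 lower at an unadjusted p under 0.05), and the summed signal was 3.81 to 5.92 against 0.944 to 1.37, mostly from Otx2 (-3.41 ± 0.41, adjusted p = 0.0551, or 0.0429 with the replicate number in the fit). For 8 OP9 stromal markers the sum was 47.8 to 54.4 in Venus-negative and 34.02 to 47.2 in Venus-positive cells, and 0 of 7 tested were called (0 higher and 2 lower at an unadjusted p under 0.05). The stromal proteoglycan gene Lum followed the replicate number, with 316 and 64.3 in Venus-negative and 313 and 50.4 in Venus-positive cells. Whether stromal cells add to the signal of any member was not tested.

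Both sorting genes had positive log2 changes that missed the threshold in the fit reported. With normexp Hoxb6 was called higher, and with a signal-dependent variance prior both Hoxb6 and Kdr were. Hoxb6, the reporter's gene, had signals of 925 and 685 in Venus-negative and 1712 and 1875 in Venus-positive cells, without overlap (log2 change 1.012 ± 0.16 SE, adjusted p = 0.0716). Kdr, which encodes Flk-1, read 20835 and 16277 against 28610 and 27040 (0.44 ± 0.11, adjusted p = 0.138).

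By centred log2 profile over the 4 arrays, the nearest of 13228 named genes well above background on all arrays were Tdgf1, Cfc1 and Eomes for Six2, at Euclidean distances of 0.22, 0.32 and 0.41. Tdgf1 and Cfc1 are co-receptors of Nodal and Eomes is a T-box gene of the primitive streak; their log2 changes were -4.89, -5.10 and -4.91, next to -4.88 for Six2. For Sall1 the nearest were Clmp, a cell adhesion protein, Prcd, a photoreceptor disc protein, and Notch3, a Notch receptor, at distances of 0.01, 0.05 and 0.07, with log2 changes of -0.996, -1.04 and -0.96. The genes were picked by this distance over the same arrays, so their similar log2 changes follow from the choice. These distances rest on 4 arrays and 1 contrast, and a like profile says nothing of shared function.

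Of the genes that flank or overlap the members in the RefSeq annotation (24 places), 8 had a named probe and 5 were tested, with 0 called in limma (0 higher and 1 lower at an unadjusted p under 0.05). Slc2a10, a glucose transporter gene beside Eya2, had the largest log2 change (-1.14 ± 0.31 SE, adjusted p = 0.149), and Zmynd8 on the other side stood at 0.29 ± 0.14 (adjusted p = 0.304). Psd4, beside Pax8, had a log2 change of -0.68 ± 0.27 (adjusted p = 0.243).

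**Figure D4:**
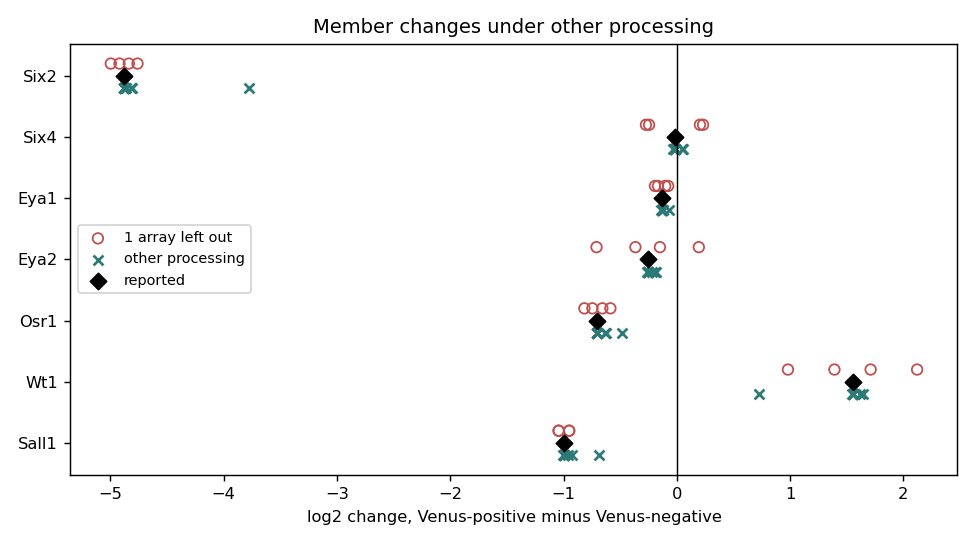
Log2 change of each tested member as reported (black diamonds), with 1 array left out (red circles) and under 10 other processing settings (green crosses). Six2, Osr1 and Sall1 stay below 0 and Wt1 above 0 in all of them, while Six4 and Eya2 cross 0.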

How the data were processed

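RNA of 2 sorted fractions was measured on 4 single-colour Agilent arrays, 2 per fraction. The deposited scanner files give each spot's intensity as Agilent Feature Extraction wrote it (version 10.10.1.1, per the file headers); its processed signal was used, and array levels differ in it. The values the authors deposited separately are intensity values equal to the processed signal times a constant for each array (1.98 to 2.44); the origin of the constants is not given in the sources used here.

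Control and outlier spots were left out, log2 processed signals were centred on each array's 75th percentile, and replicate spots were averaged per probe. Those well above background (over 50% of a probe's spots) on both arrays of a fraction were kept. Probes were named through unversioned accessions of a RefSeq table (GRCm38.p6), which matched 21465 of 37881 accessions; 28446 of 55681 probes stayed unnamed. The brightest kept probe represented a gene, giving 13925 genes and 9622 unnamed probes. These were tested with limma 3.58.1 in R 4.3.3 (2 residual and 1.8 prior degrees of freedom; R package data.table, version 1.17.8), with Benjamini-Hochberg adjustment over all of them. Second probes were tested in a fit of all kept probes. The fit was tested on simulated data.

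Members, gene lists, tests and alternatives were chosen with earlier results of these data known. Named genes are the members, genes called or with the largest change in a kidney list, the sorting and marker genes, the 3 nearest profiles and the chromosomal neighbours; list genes that were not called and are not the largest of their list were named after their values were seen. Sums over a marker list divide each gene's signal by its array's 75th percentile. The scanner tables hold no mean spot signal, so normexp (offset 50) used the median spot signal, a choice made after the files were seen. Alternatives were other background correction, centring, quantile normalization, the deposited values, other filters and probe rules, another variance prior, a replicate term and leaving out each array. Numbers shared by replicates of both fractions were not taken as pairs. Single values of some list genes are not reported here.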

Additional observations from a re-analysis of the deposited data

How the results depend on the processing

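The number of calls depended strongly on the processing. Reported were 137 genes higher and 257 lower in Venus-positive cells. With normexp 491 and 538 passed, with arrays centred on the median 259 were higher, with all probes as features 206 were higher, and with a signal-dependent variance prior 597 and 650 passed. Without a filter on dim probes 0 and 0 passed, and in each fit without 1 array 0 passed in either direction, so the range of both counts there is 0 to 0. Among the called genes 65.2% were lower in the reported fit, 52.3% with normexp and 53.3% with median centring.

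Replicates of the same number deviated together (r = 0.413 across features in replicate 1 of both fractions), but the labels do not say that the number marks a shared culture. With the replicate block 290 genes were higher and 421 lower, 1 member was called (Six2, adjusted p = 0.0429), and Sall1 had the same log2 change of -0.997 with an adjusted p of 0.0520. Among the list genes the block also ended the calls of Grem1, Krt19 and Pdgfra and added Wnt11, Gata3, Dach1, Fgf8, Crym, Otx2, Thy1, Cdh5, Cldn5 and Pecam1.

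Without a filter on dim probes 0 members were called, with Six2 at a log2 change of -4.88 (adjusted p = 0.143) and Sall1 at -0.997 (adjusted p = 0.158); 49102 features were then tested in place of 23547. Leaving out 1 array at a time, 0 members passed in any of the 4 fits: the log2 change of Six2 ranged from -5.00 to -4.76 (adjusted p 0.127 to 0.161) and that of Sall1 from -1.04 to -0.95 (adjusted p 0.148 to 0.199). In such a fit a lone array is taken to vary like the others. Over the 10 other settings, Six2 ranged from -4.88 to -3.78, the smallest being normexp, Sall1 from -1.003 to -0.69, Osr1 from -0.71 to -0.49 and Wt1 from 0.73 to 1.64. Six4 changed sign with normexp (0.051) and median centring (0.048), and it ranged from -0.27 to 0.23 with 1 array left out, being positive when the first Venus-negative array (0.20) or the second Venus-positive array (0.23) was missing. Eya2 ranged from -0.71 to 0.19, positive without Venus-negative replicate 2. The cause of these shifts was not tested.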
